A study of Homo sapiens with 12 samples.

Results

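Glycolysis, lactate transport and mitochondrial pyruvate handling were described here through 31 genes out of the 23459 genes in the count table. They were chosen by name for their textbook roles, with earlier results of these data known. All 31 were found in the table, and 30 had enough reads to be tested. The libraries come from MCF10A, a non-tumorigenic human mammary epithelial line grown with horse serum, insulin, hydrocortisone, cholera toxin and EGF. All cells carried a doxycycline-inducible YAP5SA allele, a form of the coactivator YAP that the Hippo kinases cannot inactivate, and in addition either a vector for JUN, a subunit of the transcription factor AP-1, or an empty one. Crossing the vector with 100 ng/ml doxycycline (Dox) or ethanol (EtOH) gave 4 groups of 3 libraries. They are called vector EtOH and vector Dox for the empty vector, and JUN EtOH and JUN Dox for the JUN vector, with YAP5SA induced in both Dox groups. No group received Dox without the YAP5SA allele, so Dox and YAP5SA cannot be told apart. Whether the cells were a pool or a clone is not given in the sources used here. In a bulk sample, a change of RNA per cell and a change in the mix of cells cannot be told apart either.

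Glucose enters the cell through facilitative transporters and is phosphorylated by hexokinase. It is then split and oxidised to pyruvate, with the phosphofructokinase step as the main point of control. Pyruvate is either reduced to lactate by lactate dehydrogenase and exported by monocarboxylate transporters, or carried into the mitochondrion by the MPC complex and converted to acetyl-CoA by pyruvate dehydrogenase (PDH). The 4 PDH kinases (PDK1 to PDK4) switch that enzyme off by phosphorylation. Cultured epithelial lines typically use much glucose and release lactate even with oxygen present, and hypoxia-inducible factors and MYC are known regulators of these genes.

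The manipulated genes and the cell line's markers were checked first. JUN stood at 55.0, 35.5 and 52.2 CPM (counts scaled to the same TMM-adjusted library size) in vector EtOH and at 1399, 1374 and 1064 CPM in JUN EtOH. It was also higher in vector Dox, at 188, 186 and 194 CPM. YAP1 did not pass the test with Dox in vector cells (179 ± 10.5 to 236 ± 31.5 CPM, SD, n = 3; edgeR adjusted p = 0.0819 after Benjamini-Hochberg adjustment). Whether reads of the transgene were counted under YAP1 is not given in the sources used here. Basal keratin KRT5 lay between 2121 and 4697 CPM in all 12 libraries, the T cell gene CD3E was at 0 in all of them and the luminal receptors ESR1 and PGR stayed under 1 CPM. Of 8 markers listed as basal epithelial, 6 were lower after YAP5SA induction in vector cells, where 14.4% of all genes were called lower. The summed level of the 8 was 8724 to 9344 CPM for vector EtOH and 4902 to 5902 for vector Dox. In JUN cells it was 9274 to 10679.8 CPM without and 5838 to 8329 with Dox. These sums hide opposite changes. JUN without induction raised TP63, KRT14 and LAMB3 and lowered EPCAM and ITGB4, where 20.1% of all genes were called higher and 18.9% lower. The summed fibroblast markers (COL1A1, PDGFRB and LUM) ranged from 2.12 to 10.7 CPM, highest in JUN EtOH. Only LUM among them was called higher with JUN, with means of 0.732 CPM in vector EtOH and 6.1 in JUN EtOH. In the same groups COL1A1 was at 3.3 and 3.29 CPM and PDGFRB at 0.616 and 0.399. COL1A1 and PDGFRB were called lower with YAP5SA in vector and in JUN cells, where 14.4% and 10.3% of all genes were. The summed endothelial markers (PECAM1 and 1 other) ranged from 0 to 1.95 CPM. The part of these marker shifts in the results below was not tested. Total counts ran from 18594867 to 28993487 per library, and 3 counts, the number used as the detection floor, corresponded to 0.103 to 0.161 CPM (counting error only).

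Promoters of 5 members are shown because the results turn on them: PFKFB3 (the member whose induction by YAP5SA differed with the JUN vector), ENO2 (the highest rise with JUN), PDK4 (the deepest fall with YAP5SA), SLC2A1 (the highest rise with YAP5SA) and LDHA (an abundant enzyme that passed no test in the main edgeR fit). These 5 were picked after their values were seen. For PFKFB3 and LDHA, which have 2 windows each, the window with matches is printed, since the other has none. Each line gives the 250 bases before a RefSeq transcription start on GRCh38.p14, read 5′ to 3′ on the gene's own strand. Capitals mark matches, on either strand, to GGAATG (TEAD, the DNA-binding partner of YAP), TGANTCA (AP-1, the site of JUN and FOS), ACGTG (the core of the hypoxia response element) or CACGTG (the E-box of MYC, which contains ACGTG on both strands and so counts as 2 matches of it). The PFKFB3 window (chr10:6202682-6202931, plus strand) is the second of 2 for that gene and holds 1 TEAD match and 1 E-box. The single ENO2 window (chr12:6914330-6914579, plus strand) holds 1 AP-1 match and 1 ACGTG. LDHA has its first of 2 windows at chr11:18394313-18394562, plus strand, with 5 ACGTG matches of which 4 lie in 2 E-boxes. No match was found in the windows of PDK4 (chr7:95596517-95596766, minus strand) and SLC2A1 (chr1:42958869-42959118, minus strand).
PFKFB3: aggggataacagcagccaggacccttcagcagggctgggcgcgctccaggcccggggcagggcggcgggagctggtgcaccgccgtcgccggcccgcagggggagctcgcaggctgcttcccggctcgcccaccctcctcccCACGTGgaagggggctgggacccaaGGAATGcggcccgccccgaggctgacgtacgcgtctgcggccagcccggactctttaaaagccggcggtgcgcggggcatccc
ENO2: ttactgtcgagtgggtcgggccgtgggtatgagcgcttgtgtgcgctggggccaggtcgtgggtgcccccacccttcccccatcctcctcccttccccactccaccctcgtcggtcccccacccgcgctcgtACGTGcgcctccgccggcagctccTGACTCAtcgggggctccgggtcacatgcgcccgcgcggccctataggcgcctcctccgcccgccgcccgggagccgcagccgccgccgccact
LDHA: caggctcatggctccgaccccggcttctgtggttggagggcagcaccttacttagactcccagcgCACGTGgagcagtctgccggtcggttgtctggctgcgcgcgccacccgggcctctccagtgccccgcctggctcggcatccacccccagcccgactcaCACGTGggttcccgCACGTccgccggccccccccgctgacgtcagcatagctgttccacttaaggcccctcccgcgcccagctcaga
PDK4: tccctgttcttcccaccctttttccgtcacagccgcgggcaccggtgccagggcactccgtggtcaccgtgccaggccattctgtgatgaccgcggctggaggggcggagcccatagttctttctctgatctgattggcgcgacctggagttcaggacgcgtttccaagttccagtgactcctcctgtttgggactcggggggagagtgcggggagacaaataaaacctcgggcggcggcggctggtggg
SLC2A1: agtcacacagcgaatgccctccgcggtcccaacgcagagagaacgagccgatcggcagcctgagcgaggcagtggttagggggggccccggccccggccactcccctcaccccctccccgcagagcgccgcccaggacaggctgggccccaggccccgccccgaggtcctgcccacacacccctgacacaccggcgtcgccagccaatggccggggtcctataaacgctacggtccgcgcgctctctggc

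Across the 59 windows of the 29 members with an entry, ACGTG was found in 20 windows (17 members), the E-box in 8 windows (8 members), GGAATG in 5 windows (5 members) and TGANTCA in 3 windows (ENO2 and, in 2 windows, HK1). Among all 35116 windows of that length, 18.5% held ACGTG, 6.34% the E-box, 11.9% GGAATG and 6.57% TGANTCA. A match is a run of letters, not a measured binding site, and the absence of one says only that these letters are not in the window.

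Between 4 and 11 of the 30 tested members moved in each pairwise comparison. YAP5SA induction in vector cells raised 4 of 30 tested members (SLC2A1, HK2, PFKFB3 and SLC16A1), where 15.6% of the 14775 genes tested were called higher, and lowered 5 (HK1, PFKL, PDK2, PDK3 and PDK4), where 14.4% were called lower. JUN without induction raised 4 (SLC2A1, ALDOC, PFKFB4 and ENO2; 20.1% of all genes) and lowered 7 (GPI, ENO1, LDHB, MPC1, MPC2, PDHA1 and PDK4; 18.9%). In JUN cells, YAP5SA induction raised SLC2A1 alone (11.2% of all genes) and lowered 3 (SLC16A3, PDK3 and PDK4; 10.3%). With YAP5SA induced, JUN raised 4 (ALDOC, PFKFB4, ENO2 and PDK2; 18.4%) and lowered 4 (PFKFB3, LDHB, MPC1 and PDHA1; 17.2%). The interaction, taken as the log2 response to YAP5SA with JUN less the response with the empty vector, called no member higher (0.291% of all genes) and 1 lower (PFKFB3; 0.826%). By an unadjusted p under 0.05 the interaction had 2 members higher and 4 lower. DESeq2 called 0 higher and 2 lower (PFKFB3 and SLC2A1). The shares of all genes at the unadjusted threshold and in DESeq2 are not given here, so these counts cannot be set against 0.291% and 0.826%. Calls are at an adjusted p under 0.05 in the quasi-likelihood test of edgeR, and the pairwise comparisons share groups, so they are not independent of each other.

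The median log2 change of the 30 members was -0.18 with YAP5SA in vector cells, -0.14 with JUN, -0.02 with YAP5SA in JUN cells and -0.06 with JUN under induction, while the median over all genes was within 0.01 of 0 in each. In all, 19 members were called in at least 1 pairwise comparison and 11 in none, namely ALDOA, GAPDH, LDHA, PDHB, PDK1, PFKM, PFKP, PGAM1, PGK1, PKM and TPI1. The absolute log2 change of those 11 never passed 0.36. Of all genes tested, 21.4% to 39.0% were called in a pairwise comparison. Their share called in at least 1 of these comparisons was not computed.

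**Figure D1:**
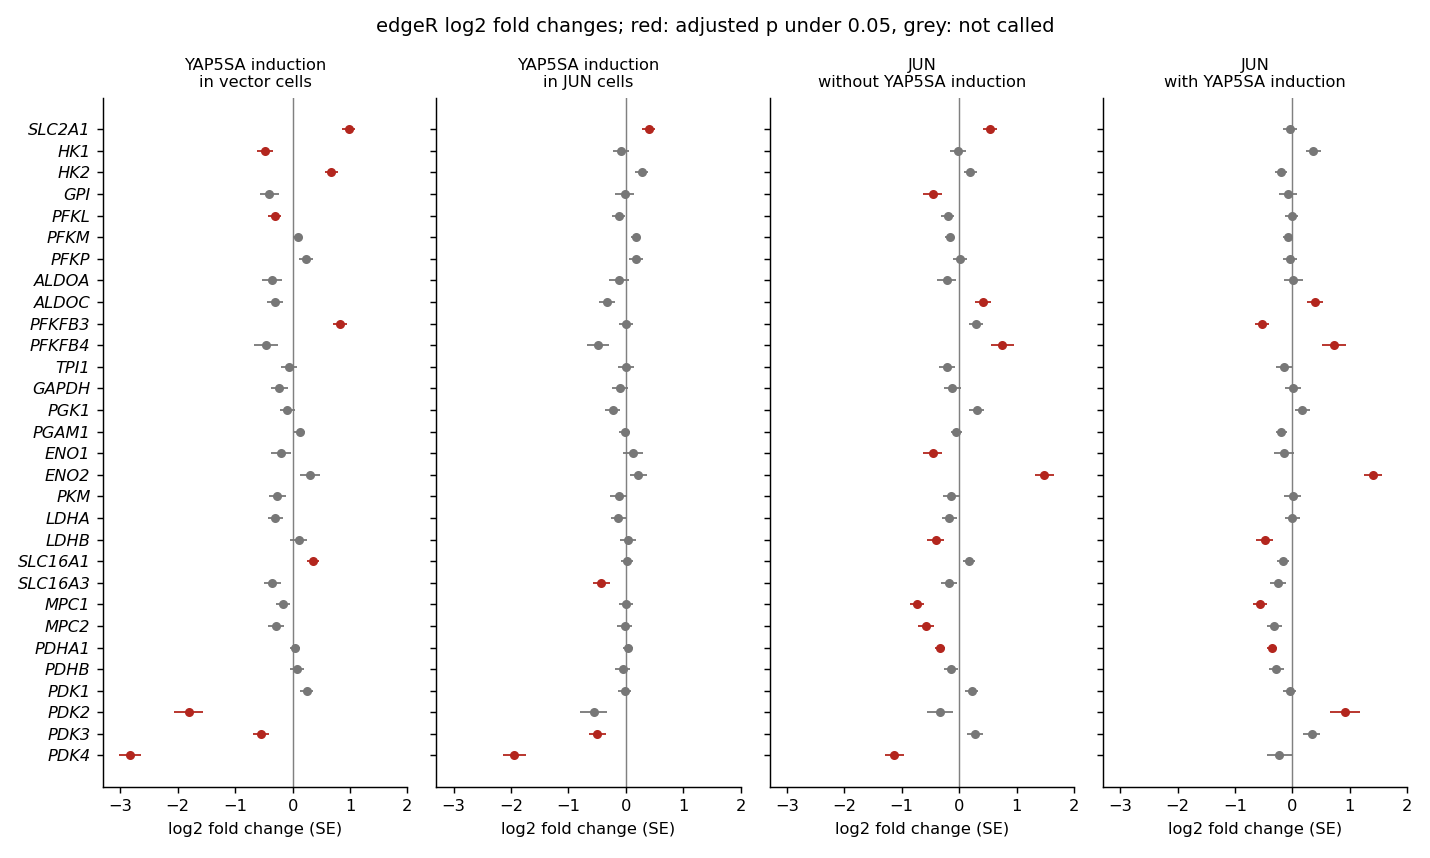
Log2 fold changes of the 30 tested members with their standard errors in the 4 pairwise comparisons, from the edgeR fit; red points had an adjusted p under 0.05 and grey points did not. PDK4 lies farthest to the left in both YAP5SA inductions and ENO2 farthest to the right in both JUN comparisons, while GAPDH, PKM and LDHA stay near 0 in grey.

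Transcripts of the main glucose transporter rose with YAP5SA and with JUN. SLC2A1 encodes GLUT1, the transporter for basal glucose uptake in most cells, and lies at chr1:43391024-43424564, minus strand on GRCh37. Its level was 93.9, 76.4 and 89.0 CPM for vector EtOH and 149, 182 and 179 for vector Dox, against 136, 116 and 124 and 148, 162 and 185 CPM for the JUN cells without and with Dox. Every vector EtOH library was below every library of the other 3 groups, and the JUN EtOH libraries lay between vector EtOH and both Dox groups. YAP5SA raised it in vector cells (log2 change 0.98 ± 0.12, adjusted p = 2.22e-05 by edgeR), as did JUN on its own (log2 change 0.54 ± 0.12, adjusted p = 0.00275 by edgeR). In JUN cells the induction was 0.40 ± 0.12 on the log2 scale (edgeR adjusted p = 0.0256), a call that was lost in 4 of 12 fits that left out 1 library (JUN EtOH or JUN Dox replicates 2 and 3, adjusted p 0.0617 to 0.116). The difference between the 2 inductions was -0.58 ± 0.17 and did not pass the edgeR test (adjusted p = 0.142). DESeq2 called it (-0.58, DESeq2 adjusted p = 0.0484), as did edgeR without vector Dox replicate 1 (-0.66, edgeR adjusted p = 0.0435). Under induction the JUN and vector libraries overlapped. SLC2A3, the high-affinity GLUT3, was not tested because it had 0 to 16 counts in a library. Its counts were 7, 6 and 2 for vector EtOH and 0, 1 and 0 for vector Dox, against 16, 11 and 9 and 5, 2 and 2 for the JUN cells without and with Dox, so vector Dox was at or under the floor and no fold is given.

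The 2 hexokinases, which trap glucose as glucose 6-phosphate, moved in opposite directions when YAP5SA was induced in vector cells. HK2, the inducible form, rose from 85.7, 74.9 and 76.4 to 113, 141 and 124 CPM (log2 change 0.67 ± 0.11, adjusted p = 0.000307 by edgeR). HK1, the widely expressed form, fell from 402, 396 and 420.1 to 247, 303 and 322 CPM (log2 change -0.48 ± 0.14, adjusted p = 0.0157 by edgeR), and no library of one group reached into the other for either gene. The HK1 call was lost without vector EtOH replicate 3 (adjusted p = 0.053). In JUN cells neither passed the test: HK2 was at 101, 88.1 and 82.3 CPM without and 115, 113 and 100.2 with induction (log2 change 0.28 ± 0.11, adjusted p = 0.0903 by edgeR), and HK1 at 396, 355 and 446 and 307, 385 and 432 CPM with overlapping groups. The interaction was -0.40 ± 0.15 for HK2 and 0.39 ± 0.19 for HK1, and neither passed (edgeR adjusted p = 0.376 and 0.609). HK1 under induction was 0.37 ± 0.14 log2 higher with JUN than with the vector, just outside the threshold (edgeR adjusted p = 0.0503), and 9 of 21 alternatives called it, DESeq2 among them.

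**Figure D2:**
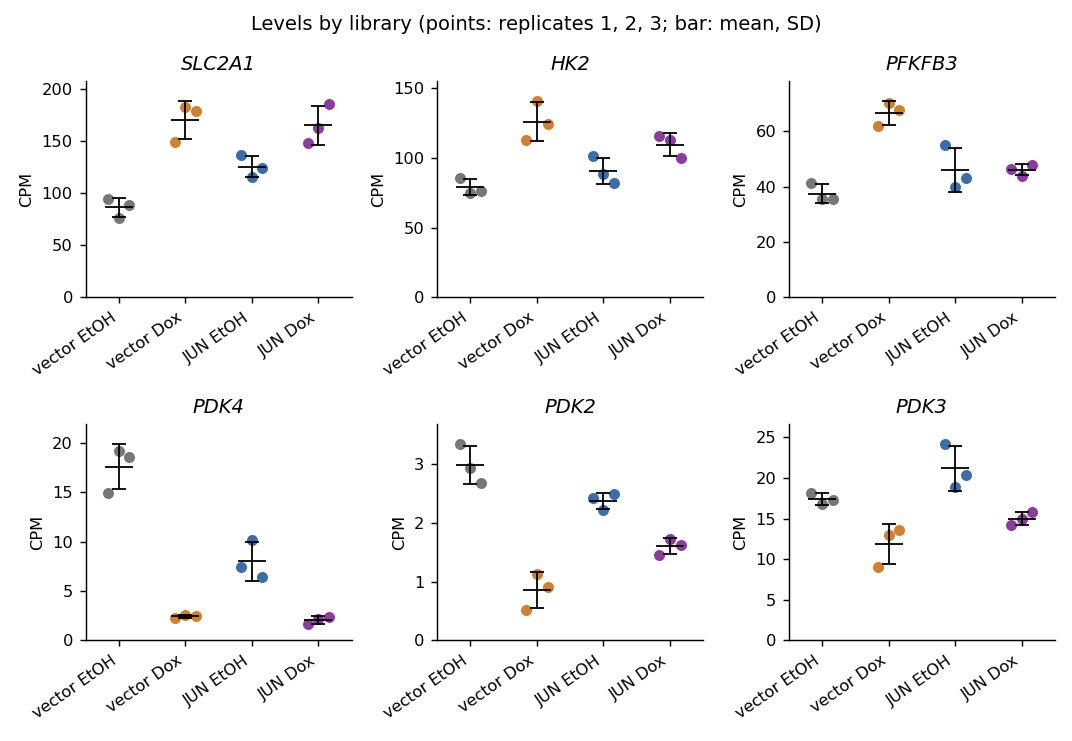
Levels in CPM of SLC2A1, HK2, PFKFB3, PDK4, PDK2 and PDK3 in the 4 groups; points are the 3 libraries of a group and the bars their mean and SD. SLC2A1, HK2 and PFKFB3 are higher in vector Dox than in vector EtOH, the 3 kinases are lower, and PFKFB3 in JUN Dox sits at the level of JUN EtOH.

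PFKFB3 was the only member whose interaction passed in the main edgeR fit, while DESeq2 also called that of SLC2A1. Its product makes fructose 2,6-bisphosphate, the strongest activator of phosphofructokinase, and the gene lies at chr10:6186897-6296607, plus strand on GRCh37. Levels were 41.4, 35.6 and 35.5 CPM in vector EtOH and 61.8, 70.3 and 67.9 in vector Dox, a rise of 1.78-fold with no overlap (log2 change 0.83 ± 0.12, adjusted p = 0.000105 by edgeR). In JUN EtOH they were 55.1, 39.9 and 43.2 CPM and in JUN Dox 46.5, 44 and 48.0 CPM, so these groups overlapped (log2 change 0.00 ± 0.12, adjusted p = 0.995 by edgeR). The interaction was -0.83 ± 0.17 (edgeR adjusted p = 0.024), and with YAP5SA induced the JUN libraries were lower than the vector libraries (log2 change -0.53 ± 0.12, adjusted p = 0.0032 by edgeR). JUN without induction had a log2 change of 0.30 ± 0.12 that did not pass (edgeR adjusted p = 0.0624). The interaction kept its sign and its call in all 8 other settings that could be fitted, with values between -0.92 and -0.68 over all 20 alternatives, but 6 of 12 fits that left out 1 library gave an adjusted p of 0.06 to 0.0962 (JUN Dox 2, JUN EtOH 1, vector Dox 2 and 3, vector EtOH 2 and 3).

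The related gene PFKFB4, whose product makes or breaks down the same activator, was higher with JUN in both comparisons. It was low throughout, at 3.5, 3.84 and 3.37 CPM for vector EtOH and 2.79, 3.15 and 1.86 for vector Dox, against 7.39, 5.27 and 5.35 and 4.21, 4.45 and 4.23 CPM for the JUN cells without and with Dox. In both comparisons of JUN with the vector the groups were apart (log2 changes 0.75 ± 0.20 and 0.73 ± 0.21; edgeR adjusted p = 0.00793 without and 0.0131 with induction). The first call was lost without JUN EtOH replicate 1 (adjusted p = 0.0563) and the second without vector Dox replicate 3 (adjusted p = 0.0615). With YAP5SA the log2 changes were -0.46 ± 0.21 in vector and -0.48 ± 0.19 in JUN cells, neither of which passed (edgeR adjusted p = 0.115 and 0.0923).

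Of the 6 genes of upper glycolysis, PFKL, GPI and ALDOC were called in at least 1 comparison, and PFKM, PFKP and ALDOA in none. Between 21.4% and 39.0% of all genes were called per pairwise comparison. Phosphofructokinase, the committed step, has a liver (PFKL), a muscle (PFKM) and a platelet (PFKP) subunit, and PFKP was the most abundant of them per exon length. PFKL went from 143, 154 and 136 to 113, 119.9 and 115 CPM with YAP5SA in vector cells (log2 change -0.31 ± 0.11, adjusted p = 0.0466 by edgeR). That call was lost in 9 of 12 fits that left out 1 library and after correction for GC content (log2 change -0.17, adjusted p = 0.102), and at 64.6% PFKL has one of the highest exon GC contents on the list. Phosphoglucose isomerase (GPI), which interconverts glucose 6-phosphate and fructose 6-phosphate, was at 620.1, 600.4 and 680.0 CPM in vector EtOH and 428, 423 and 530.0 in JUN EtOH (log2 change -0.46 ± 0.16, adjusted p = 0.0368 by edgeR), a call lost in 6 of 12 fits that left out 1 library. ALDOA, the main aldolase, passed no test in the main fit. The brain form ALDOC went from 14.4, 15.7 and 15.7 to 20.7, 18.5 and 21.7 CPM with JUN (log2 change 0.41 ± 0.14, adjusted p = 0.0293 by edgeR). Under induction it went from 12.6, 14.6 and 9.95 to 13.9, 17.4 and 17.1 CPM with JUN, where the groups overlapped (log2 change 0.39 ± 0.14, adjusted p = 0.0429 by edgeR). The calls of ALDOC were lost in 5 and in 9 of 12 such fits.

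Lower glycolysis, the payoff phase, held the most abundant transcripts. Of its 7 genes, 2 were called in at least 1 comparison, both enolases, where 21.4% to 39.0% of all genes were called per pairwise comparison. Enolase makes phosphoenolpyruvate. ENO2, the neuronal form at chr12:7022909-7032861, plus strand on GRCh37, was at 3.54, 2.49 and 3.37 CPM for vector EtOH and 3.84, 4.42 and 3.39 for vector Dox, against 9.95, 7.71 and 8.78 and 10.2, 9.85 and 10.6 CPM for the JUN cells without and with Dox. All 6 JUN libraries lay above all 6 vector libraries. The JUN vector raised it 2.79-fold without induction (log2 change 1.48 ± 0.17, adjusted p = 9.14e-06 by edgeR) and 2.64-fold with it (log2 change 1.40 ± 0.16, adjusted p = 1.19e-05 by edgeR). Both calls held in all 21 alternatives. YAP5SA did not move it past the threshold in either background (log2 change 0.30 ± 0.17 and 0.22 ± 0.15; edgeR adjusted p = 0.219 and 0.354). ENO1, the ubiquitous form, was lower in JUN EtOH than in vector EtOH (2614, 2399 and 3317 against 3697, 3773 and 4024 CPM; log2 change -0.46 ± 0.17, adjusted p = 0.0465 by edgeR), a call lost in 8 of 12 fits that left out 1 library. Despite its rise, ENO2 remained a trace form, since ENO1 was at 622 and ENO2 at 1.52 CPM per kb of exon on average over the 12 libraries.

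GAPDH, PKM, TPI1, PGK1 and PGAM1, the other enzymes of this phase, passed no test in the main fit. GAPDH, which makes the NADH that lactate dehydrogenase uses, was at 3028 ± 197, 2583 ± 118, 2793 ± 314 and 2593 ± 455 CPM in vector cells without and with Dox and in JUN cells without and with Dox (SD, n = 3 each). PKM, the last enzyme of glycolysis, was at 2317 ± 103, 1928 ± 53.6, 2109.9 ± 302 and 1931 ± 372 CPM in the same order. PGK1, an ATP-making step, was highest in JUN EtOH at 515, 472 and 474 CPM against 384, 408 and 389 in vector EtOH (log2 change 0.31 ± 0.13, adjusted p = 0.07 by edgeR), and 4 of 21 alternatives called it. Gene copies limit these values: GENCODE names 65 pseudogenes of GAPDH and 13 of PGAM1, and the pseudogene PGAM1P5 held a mean of 195.5 counts beside 6716 of PGAM1 itself.

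Several of the abundant members varied more between libraries in JUN Dox than in the vector groups. ALDOA was at 1728, 1782 and 1844 CPM in vector EtOH and 1345, 1361 and 1453 in vector Dox, but at 1005, 1452 and 1753 in JUN Dox, a highest-to-lowest ratio of 1.75 against 1.07 and 1.08 in the vector groups. In JUN Dox the same ratio was 1.71 for ENO1, 1.67 for GPI and 1.58 for SLC16A3. It went the other way for LDHB (1.53 in vector Dox and 1.13 in JUN Dox) and PGK1 (1.4 and 1.26). Replicate 1 of JUN Dox was the lowest of the 3 libraries for 21 of 30 members, where 42.4% of all genes tested were lowest in it. The libraries also differed in how counts related to exon GC content. The correlation of exon GC with the deviation of a gene from its group mean was -0.358 in JUN Dox replicate 1 and 0.362 in replicate 3, and -0.204 and 0.225 in JUN EtOH replicates 1 and 3, against -0.0892 to 0.0758 in the 6 vector libraries (a correlation across genes, which are not independent). The part of GC content in the spread of these enzymes was not tested beyond the GC-corrected fit. GAPDH, PKM and ENO1 had lower means in vector Dox than in vector EtOH, and PFKM, PFKP and PGAM1 higher ones, with none called. ALDOA, LDHA, GPI and SLC16A3 also had lower means there. Their log2 changes were -0.36 ± 0.17, -0.30 ± 0.13, -0.40 ± 0.16 and -0.35 ± 0.14 (edgeR adjusted p = 0.131, 0.1, 0.0768 and 0.0774). None passed in the edgeR fit of all 12 libraries with TMM scaling. DESeq2 and upper-quartile scaling each called LDHA, GPI and SLC16A3 (adjusted p 0.0355 to 0.0464), the replicate block called GPI (adjusted p = 0.0277), and all 4 passed when only the 6 vector libraries were fitted (adjusted p 0.019 to 0.0344) or when JUN Dox replicate 1 was left out (0.0158 to 0.0294).

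**Figure D3:**
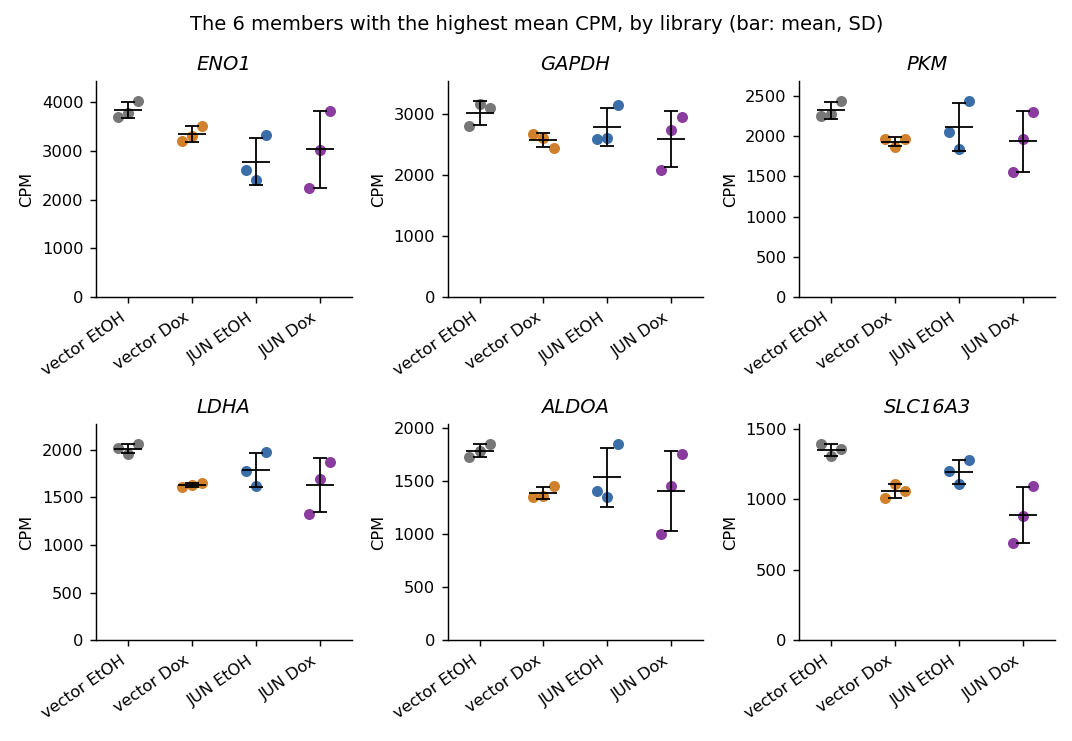
Levels in CPM of the 6 members with the highest mean CPM in the 4 groups; points are libraries and bars the mean and SD. The 3 JUN Dox libraries of ALDOA, ENO1 and SLC16A3 span a wide range, while the vector Dox libraries of LDHA and PKM lie close together and below vector EtOH.

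Lactate metabolism showed small and unequal changes. LDHA, the subunit that favours making lactate, passed no test and was at 2010.3 ± 48.7 CPM in vector EtOH and 1628 ± 281 in JUN Dox (SD, n = 3). LDHB, which favours the reverse reaction, was lower with JUN, at 463, 464 and 501 CPM in JUN EtOH against 586, 688 and 619.9 in vector EtOH (log2 change -0.41 ± 0.15, adjusted p = 0.0385 by edgeR). Under induction it was at 462, 522 and 478 CPM in JUN Dox against 878, 573 and 592 in vector Dox (log2 change -0.48 ± 0.15, adjusted p = 0.0193 by edgeR). Vector Dox replicate 1 stood apart from replicates 2 and 3 here. Without it the last change was -0.25 (adjusted p = 0.0927), without JUN Dox replicate 1 it was -0.44 (adjusted p = 0.0556) and with only the 6 libraries compared -0.47 (adjusted p = 0.0788), and the call without induction was lost in 6 of 12 fits that left out 1 library.

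The monocarboxylate transporters had log2 changes of opposite sign with YAP5SA in vector cells. SLC16A1 (MCT1), which moves lactate either way, rose with YAP5SA in vector cells from 336, 312 and 336 to 399, 438 and 421 CPM (log2 change 0.35 ± 0.10, adjusted p = 0.0159 by edgeR). The call was lost without vector EtOH replicate 2 (adjusted p = 0.0729) or vector Dox replicate 2 (adjusted p = 0.0564). In JUN cells it stood at 376, 354 and 376 and 331, 388 and 404 CPM with overlap (log2 change 0.02 ± 0.10, adjusted p = 0.911 by edgeR), and the interaction of -0.33 ± 0.14 did not pass (edgeR adjusted p = 0.478). SLC16A3 (MCT4), the low-affinity exporter of glycolytic cells, was lower after YAP5SA induction in JUN cells, at 694, 879 and 1096 against 1202, 1108 and 1278 CPM (log2 change -0.43 ± 0.14, adjusted p = 0.0448 by edgeR), a call lost in 10 of 12 fits that left out 1 library. Exons of SLC16A3 share 482 bases with CSNK1D on the other strand, so some of its reads may belong to that gene.

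Of the 4 genes for the entry of pyruvate into the mitochondrion, JUN lowered 3 without induction (MPC1, MPC2 and PDHA1) and 2 with it (MPC1 and PDHA1), where 18.9% and 17.2% of all genes were called lower. The median log2 change of the 4 was -0.45 without and -0.33 with induction. MPC1, an obligate subunit of the mitochondrial pyruvate carrier at chr6:166778407-166796501, minus strand on GRCh37, was at 23.0, 26.8 and 25.7 CPM for vector EtOH and 25.2, 18.6 and 23.6 for vector Dox, against 14.1, 14.8 and 16.4 and 15.4, 14.5 and 15.7 CPM for the JUN cells without and with Dox. Every JUN library was below every vector library. The fold was 0.602 without induction (log2 change -0.73 ± 0.12, adjusted p = 0.000347 by edgeR) and 0.676 with it (log2 change -0.56 ± 0.12, adjusted p = 0.00262 by edgeR). No alternative removed either call. Its partner MPC2 fell with JUN from 82.6, 106 and 98.4 to 59.8, 66.7 and 66.5 CPM (log2 change -0.57 ± 0.14, adjusted p = 0.00462 by edgeR). Under induction MPC2 was at 91.8, 64.9 and 79.1 CPM with the vector and 55.5, 61.0 and 73.2 with JUN, which overlapped (log2 change -0.31 ± 0.14, adjusted p = 0.0876 by edgeR).

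PDHA1, the catalytic alpha subunit of pyruvate dehydrogenase, was lower with JUN by a smaller amount and with little spread. Its levels were 81.9, 80.1 and 84.4 CPM for vector EtOH and 94.4, 79.1 and 81.0 for vector Dox, against 64.4, 66.6 and 64.4 and 67.4, 67.9 and 64.2 CPM for the JUN cells without and with Dox, so the JUN and vector libraries did not overlap. Log2 changes were -0.33 ± 0.09 and -0.35 ± 0.09 (edgeR adjusted p = 0.00851 without and 0.00676 with induction), and the second was lost when only the 6 libraries compared were fitted (adjusted p = 0.0605). PDHB, the beta subunit of the same enzyme, passed no test in the main fit (log2 change -0.14 ± 0.13 without and -0.28 ± 0.13 with induction; edgeR adjusted p = 0.397 and 0.0996). YAP5SA called none of these 4 genes in either background. Exons of MPC2 overlap those of DCAF6 and exons of PDHA1 those of MAP3K15, so these values are uncertain to that extent, while MPC1 overlaps no annotated gene.

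**Figure D4:**
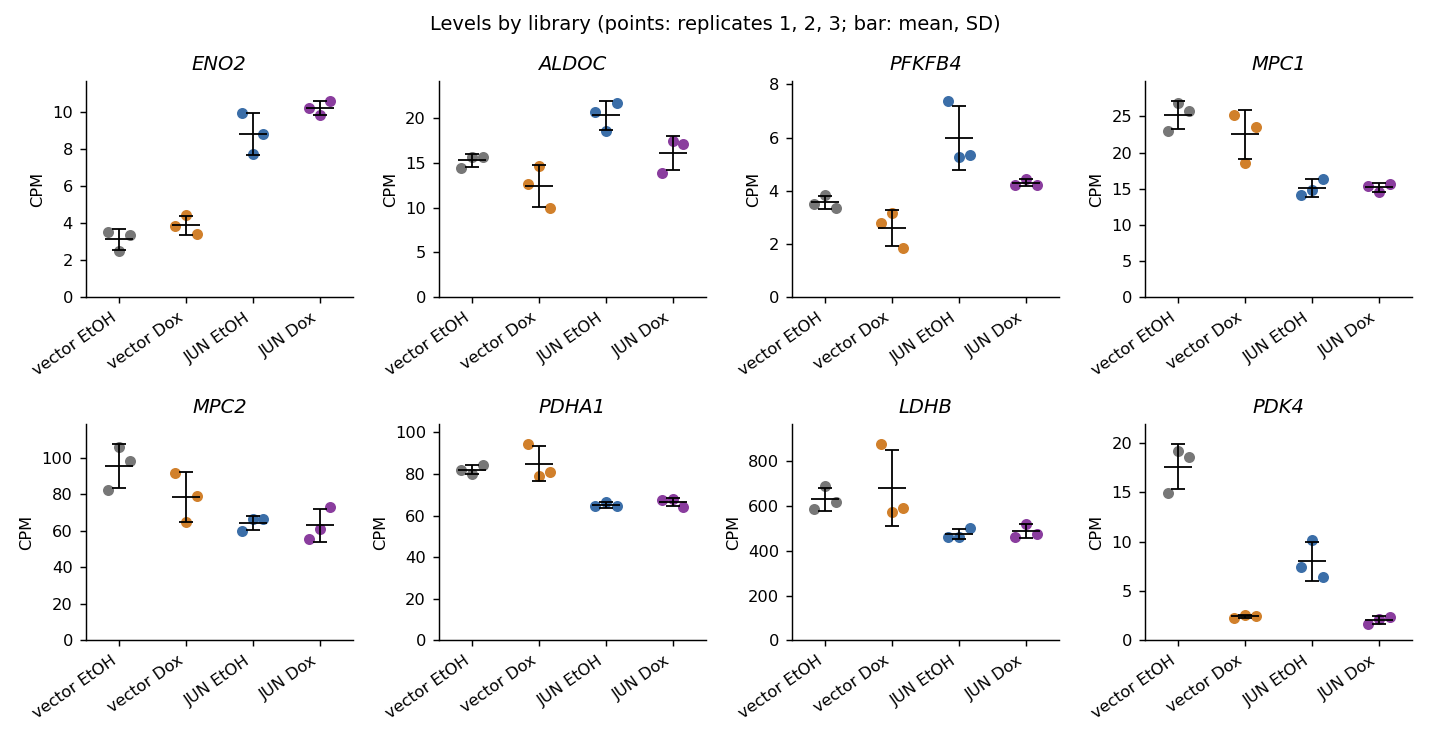
Levels in CPM of 8 members called in a comparison of JUN with the vector; points are the 3 libraries of a group and bars their mean and SD. ENO2 is higher and MPC1 and PDHA1 lower in all JUN libraries than in all vector libraries, and LDHB in vector Dox replicate 1 (left point) lies far above the other 2.

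Of the 4 PDH kinases, YAP5SA lowered 3 in vector cells and 2 in JUN cells, where 14.4% and 10.3% of all genes were called lower. PDK4 had the largest fall of any member in both. PDK4, the kinase induced by fasting and glucocorticoids in many tissues, lies at chr7:95212811-95225828, minus strand on GRCh37. Its level fell from 14.9, 19.2 and 18.6 CPM in vector EtOH to 2.31, 2.57 and 2.48 in vector Dox, and from 7.44, 10.2 and 6.43 in JUN EtOH to 1.66, 2.16 and 2.38 in JUN Dox. Both Dox groups were below both EtOH groups in every library, and JUN EtOH lay between vector EtOH and the Dox groups. The level with YAP5SA was 0.140 of that without it in vector cells (log2 change -2.84 ± 0.19, adjusted p = 5.75e-08 by edgeR) and 0.260 in JUN cells (log2 change -1.94 ± 0.20, adjusted p = 7.16e-06 by edgeR). JUN alone also lowered it (log2 change -1.13 ± 0.17, adjusted p = 0.00016 by edgeR), while under induction JUN and vector libraries did not differ past the threshold (log2 change -0.23 ± 0.22, adjusted p = 0.429 by edgeR). The interaction of 0.89 ± 0.28 did not pass (edgeR adjusted p = 0.19). The 3 PDK4 calls held in all 21 alternatives.

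PDK2, a widely expressed kinase sensitive to pyruvate, was low in these cells, with 3.35, 2.94 and 2.69 CPM in vector EtOH and 0.523, 1.13 and 0.909 in vector Dox. That fall was -1.81 ± 0.25 on the log2 scale (edgeR adjusted p = 7.72e-05) and held in all 20 alternatives that could be fitted. JUN EtOH had 2.42, 2.23 and 2.49 CPM and JUN Dox 1.45, 1.73 and 1.63 CPM, which did not overlap, but the change did not pass (log2 -0.56 ± 0.24, adjusted p = 0.109 by edgeR). With YAP5SA induced, the JUN libraries were higher than the vector libraries (log2 change 0.91 ± 0.26, adjusted p = 0.0151 by edgeR), a call lost without vector Dox replicate 1 (0.67, adjusted p = 0.0604) or with only the libraries compared (adjusted p = 0.0648). The interaction was 1.25 ± 0.35 and did not pass (edgeR adjusted p = 0.126). Exons of PDK2 share 2113 bases with SAMD14 on the other strand, a gene with a mean of 0.5 counts in these libraries.

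PDK3, the kinase least inhibited by pyruvate, was lower with YAP5SA in both backgrounds. It went from 18.2, 16.8 and 17.3 to 9.07, 13.0 and 13.6 CPM in vector cells (log2 change -0.55 ± 0.14, adjusted p = 0.00988 by edgeR) and from 24.2, 18.9 and 20.4 to 14.2, 15 and 15.8 CPM in JUN cells (log2 change -0.49 ± 0.14, adjusted p = 0.0218 by edgeR). The groups did not overlap in either case. The call in JUN cells was lost without JUN EtOH replicate 1 (adjusted p = 0.116), JUN Dox replicate 1 (adjusted p = 0.053) or JUN Dox replicate 2 (adjusted p = 0.0654). PDK1, a known target of hypoxia-inducible factor, passed no test and was at 21.4 ± 1.37, 25.4 ± 1.03, 24.9 ± 1.32 and 24.6 ± 3.81 CPM in vector cells without and with Dox and in JUN cells without and with Dox (SD, n = 3 each). Per kb of exon, PDK4 led the family in vector EtOH at 3.87 ± 0.505 CPM per kb against 1.44 ± 0.0926 for PDK1, and in vector Dox PDK1 led at 1.71 ± 0.0691 against 0.540 ± 0.0288 for PDK4. The order in JUN EtOH was not separated, with 1.77 ± 0.429 for PDK4 and 1.68 ± 0.0891 for PDK1 (SD, n = 3). These orders depend on the length used, all annotated exons merged, which was 14845 bases for PDK1 and 4544 for PDK4. In CPM, PDK1 was above PDK4 in vector EtOH too, at 21.4 ± 1.37 against 17.6 ± 2.3 (SD, n = 3).

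Ratios of isozymes within a library need no scaling for library size, and were taken as a description with no test. They were not corrected for GC content, while the relation of counts to exon GC content differed between libraries. Such a difference need not cancel where the paired genes differ in exon GC content, as SLC16A3 and SLC16A1 or PFKP and PFKL do. Its part in these ratios was not tested. The log2 ratio of HK2 to HK1 counts was -2.23, -2.40 and -2.46 in vector EtOH and -1.13, -1.10 and -1.38 in vector Dox, a difference of 1.16 with no overlap. In JUN cells it went from -1.97, -2.01 and -2.44 to -1.41, -1.77 and -2.11, a difference of 0.38 with overlap. Per exon length HK2 was thus at 0.226 of HK1 in vector EtOH and at 0.505 in vector Dox, so HK1 remained the main form. The ratio of SLC16A3 to SLC16A1 fell with YAP5SA in both backgrounds without overlap, from a log2 of 2.04 ± 0.03 to 1.34 ± 0.01 in vector cells and from 1.70 ± 0.06 to 1.23 ± 0.19 in JUN cells (SD, n = 3). The PFKP to PFKL ratio rose in both, by 0.54 and 0.31. JUN raised the ENO2 to ENO1 ratio by 1.98 without and 1.58 with induction, and the ALDOC to ALDOA ratio by 0.64 and 0.41, the last with overlap. LDHA to LDHB was higher with JUN by 0.23 and 0.44, and the second difference includes the LDHB value of vector Dox replicate 1. PFKP to PFKM moved by at most 0.17 with overlap in every comparison, and SLC2A3 had too few counts for a ratio.

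**Figure D5:**
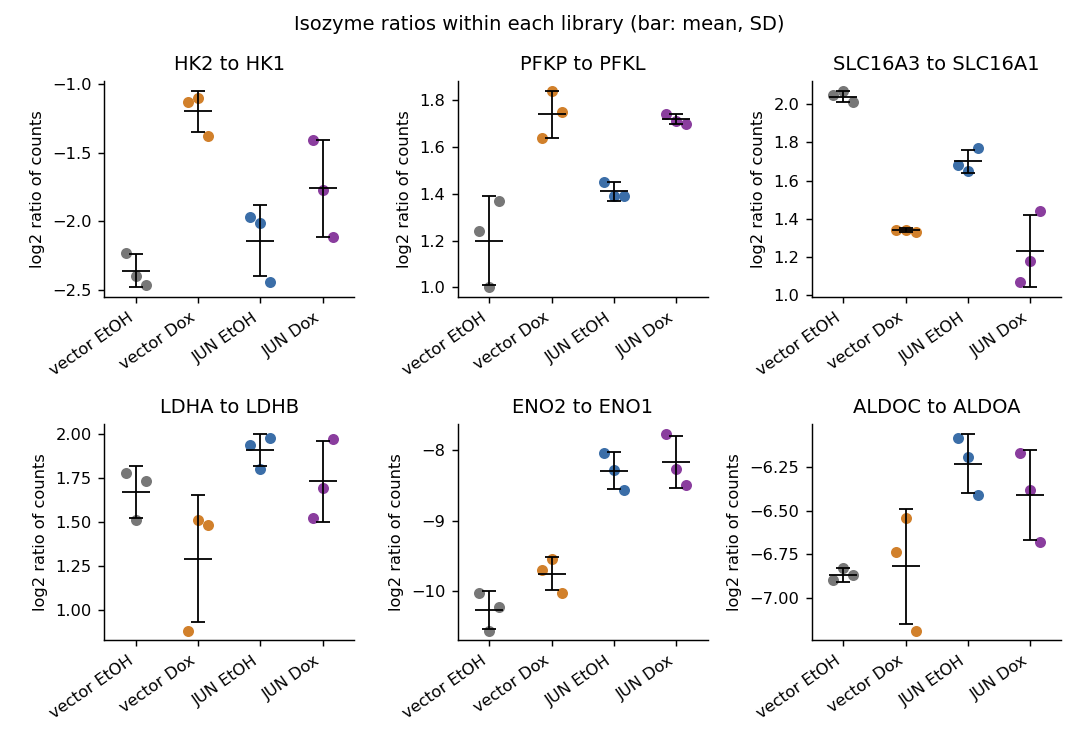
Log2 ratio of the counts of 2 isozymes in each library, by group; points are libraries and bars the mean and SD, and the vertical axes differ between panels and do not start at 0. HK2 to HK1 rises and SLC16A3 to SLC16A1 falls from vector EtOH to vector Dox, and ENO2 to ENO1 is higher in all JUN libraries than in all vector libraries.

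The 31 members made up 1.80% to 1.90% of counts for vector EtOH and 1.57% to 1.60% for vector Dox, against 1.53% to 1.80% and 1.33% to 1.75% for the JUN cells without and with Dox. Their summed level was 18586 ± 569 CPM for vector EtOH and 16197 ± 82.2 for vector Dox, against 16165 ± 1827 and 15434 ± 2825 CPM for the JUN cells without and with Dox (SD, n = 3). The vector Dox libraries were all below the vector EtOH libraries, while the JUN groups overlapped each other and JUN EtOH also overlapped vector EtOH. ENO1, GAPDH, PKM, LDHA, ALDOA and SLC16A3 together supplied 75.2% of the sum over all libraries. Per kb of exon, GAPDH (1148 CPM per kb, mean of 12 libraries), ENO1 (622), ALDOA (399), LDHA (293) and PKM (242) stood highest, and PDK3 (0.938), PFKFB4 (0.674), PDK2 (0.358) and SLC2A3 (0.0310) lowest. In JUN Dox the neighbours ENO1 (580.1 ± 152) and ALDOA (366 ± 98.4), or LDHA (270.2 ± 46.6) and PKM (225 ± 43.4; SD, n = 3), were separated by little against their spread.

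Other genes of glucose metabolism, in lists drawn up by pathway, were read beside the members. Of 17 tested genes of other glycolytic isozymes, transporters and branch enzymes, YAP5SA in vector cells raised 5 and lowered 1 (PGM1, log2 -0.32 ± 0.11), and JUN without induction raised 5 and lowered 3. The shares of all genes called higher and lower, against which this and the next counts are to be read, were 15.6% and 14.4% for YAP5SA in vector cells, 11.2% and 10.3% for YAP5SA in JUN cells, 20.1% and 18.9% for JUN without induction and 18.4% and 17.2% for JUN with it. PFKFB2, the heart form of the same bifunctional enzyme, had the highest called YAP5SA change of that list in both backgrounds, with 43.6, 35.9 and 41.7 CPM for vector EtOH and 74.4, 88.1 and 75.1 for vector Dox, against 56.8, 63.0 and 46.7 and 138, 88.6 and 74.5 CPM for the JUN cells without and with Dox (log2 change 0.97 ± 0.19 and 0.85 ± 0.18; edgeR adjusted p = 0.00112 and 0.00396). Its interaction of -0.11 ± 0.26 did not pass (edgeR adjusted p = 0.971). With JUN, the transporter SLC2A6 was the highest change but went from 0.0253 ± 0.0439 to 1.54 ± 0.254 CPM, near the floor on the vector side, and GPD1L, an enzyme of the glycerol 3-phosphate branch, the lowest (log2 change -0.85 ± 0.10, adjusted p = 1.09e-05 by edgeR).

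On the pyruvate and lactate side, 21 further genes were tested, and JUN without induction raised 3 and lowered 9 of them, against 2 and 8 with induction and 4 raised by YAP5SA in either background. GOT1, which moves reducing equivalents out of the cytosol in the malate-aspartate shuttle, had the lowest JUN change (log2 -0.98 ± 0.10, adjusted p = 3.24e-06 by edgeR). PDP2, a PDH phosphatase that reverses what the PDH kinases do, was the highest with YAP5SA in vector cells, at 50.1, 44.6 and 47.5 against 30.0, 26.8 and 29.1 CPM (log2 0.73 ± 0.09, adjusted p = 3.5e-05 by edgeR). Of 10 pentose phosphate genes, YAP5SA in vector cells raised 3 and lowered 4, with RPIA highest (log2 1.02 ± 0.14) and H6PD lowest (log2 -0.85 ± 0.12), and JUN lowered TKT, the transketolase that links this branch with glycolysis (log2 -0.69 ± 0.13, adjusted p = 0.00104 by edgeR). Of 11 glycogen genes, YAP5SA in vector cells lowered 4, led by the phosphorylase PYGB (log2 -0.96 ± 0.15), and raised none by edgeR (unadjusted p under 0.05: 0 higher), while JUN raised 4, led by PPP1R3B (log2 1.80 ± 0.18), and lowered 1. Only 2 of 6 gluconeogenesis genes were tested, and G6PC3 was lower with YAP5SA in vector cells and with JUN (log2 -0.54 ± 0.12 and -0.75 ± 0.12).

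The hexosamine branch diverts fructose 6-phosphate to UDP-N-acetylglucosamine for glycosylation. JUN raised 5 of its 7 genes without and 4 with induction, where 20.1% and 18.4% of all genes were called higher. GFPT2, an isoform of its rate-limiting enzyme, was at 47.5, 47.2 and 43.8 CPM for vector EtOH and 8.46, 11.9 and 8.92 for vector Dox, against 186, 168 and 179 and 67.2, 84.0 and 73.8 CPM for the JUN cells without and with Dox. The 4 groups did not overlap, and the interaction was 1.00 ± 0.17 (edgeR adjusted p = 0.00826), so the fall with YAP5SA was smaller on the log2 scale in JUN cells. UAP1, which makes the final product, had the highest YAP5SA change of that branch in both backgrounds (log2 1.42 ± 0.11 and 1.30 ± 0.11; edgeR adjusted p = 2.11e-07 and 1.1e-06).

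Among 22 tested regulators of these pathways, JUN without induction raised 10 and lowered 2, where 20.1% of all genes were called higher and 18.9% lower. HIF1A, the oxygen-sensitive subunit of the main hypoxia-inducible factor, was at 294, 244 and 279 CPM in vector EtOH and 829, 681 and 659 in JUN EtOH (log2 change 1.41 ± 0.14, adjusted p = 1.93e-06 by edgeR), and at 189.7, 264 and 239 against 534, 510.5 and 499.7 CPM under induction (log2 change 1.16 ± 0.13, adjusted p = 1.27e-05 by edgeR). HIF1A protein, which is controlled mainly by its breakdown, was not measured. YAP5SA lowered HIF1A in JUN cells (log2 -0.49 ± 0.13, adjusted p = 0.0158 by edgeR) and gave -0.24 ± 0.13 in vector cells (edgeR adjusted p = 0.196). MYC was lower with JUN in both comparisons (log2 -0.41 ± 0.11 and -0.46 ± 0.11; edgeR adjusted p = 0.00707 and 0.00382) and had -0.00 ± 0.11 and -0.05 ± 0.11 with YAP5SA (edgeR adjusted p = 0.984 and 0.787). TXNIP, which restrains glucose uptake and removes GLUT1 from the surface, fell with YAP5SA from 113, 133 and 93.1 to 28.8, 40.4 and 29.8 CPM in vector cells (log2 -1.78 ± 0.23, adjusted p = 3.75e-05 by edgeR) and from 181, 215 and 131 to 65.2, 89.6 and 47.4 CPM in JUN cells (log2 -1.38 ± 0.22, adjusted p = 0.000477 by edgeR). JUN raised it in both comparisons (log2 0.63 ± 0.22 and 1.03 ± 0.23; edgeR adjusted p = 0.0335 and 0.00289). The interactions of HIF1A, MYC and TXNIP were -0.25 ± 0.19, -0.05 ± 0.15 and 0.40 ± 0.31, and none passed (edgeR adjusted p = 0.829, 0.98 and 0.851).

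Genes of the low-oxygen response outside glycolysis were read last. All 20 were tested, and JUN without induction raised 12 and lowered 1 (20.1% and 18.9% of all genes), with the angiogenic growth factor VEGFA highest (log2 2.11 ± 0.15, adjusted p = 7.11e-08 by edgeR). YAP5SA in vector cells raised 3 and lowered 10 (15.6% and 14.4% of all genes), with the peptide hormone ADM highest (6.88 ± 0.701 to 348 ± 87.6 CPM, SD, n = 3; log2 5.66 ± 0.19, adjusted p = 6.66e-11 by edgeR) and DDIT4, an inhibitor of mTORC1, lowest (log2 -2.24 ± 0.16, adjusted p = 1.08e-07 by edgeR). The difference in share between these lists was not tested, and their median log2 changes with JUN were 0.61 for the 20 genes and -0.14 for the 30 members, beside a median over all genes within 0.01 of 0.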

How the data were processed

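RNA of 12 MCF10A cultures (4 groups of 3, replicates as numbered in the labels) was measured by single-end poly(A) RNA-seq. The authors trimmed reads with cutadapt (4.2 in the submitters' processing notes), aligned them to hg19 with Bowtie2 (2.3.5.1 in those notes), which does not split reads over introns, and deposited raw counts per gene made with countOverlaps. The annotation and the use of strand are not given in the sources used here. The 23459 Entrez identifiers were named from the gene table supplied with the reference (99.4% matched). All 31 members were matched to GENCODE on GRCh37 for positions, exon length and GC content. Exon length is that of all annotated exons of a gene merged.

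Genes were kept with edgeR's filterByExpr (minimum count 10, minimum total 15), which left 14775. Counts were scaled with TMM and fitted in 1 robust quasi-likelihood model of the 4 groups (edgeR 4.0.16, limma 3.58.1, R 4.3.3), with Benjamini-Hochberg adjustment over all genes tested and a threshold of 0.05. The biological coefficient of variation was 12.5%, and the SE of a log2 change was its size divided by the square root of F. P-values weigh a difference between groups against the spread between these samples, which may be in part technical where cultures were not independent.

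The members and lists were chosen with earlier results of these data known. Genes outside the members are named where they are the highest or lowest of their list in a comparison or are key regulators (HIF1A, MYC, TXNIP), and further names were chosen after their values were seen. Alternatives were DESeq2 1.42.0, RLE and upper-quartile scaling, no filter, a mean of at least 5 CPM, only the libraries compared, a replicate block, a loess correction for GC content (span 0.3) and leaving out each library. Exons of 20 members share bases with another annotated gene and 14 members have named pseudogenes, which limits those counts. Promoter sequences came from RefSeq on GRCh38.p14, with 29 of 31 members matched.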

Additional observations from a re-analysis of the deposited data

Results flagged for a closer look

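By the interaction test of edgeR over all genes, the response to YAP5SA differed with the JUN vector for 6 listed genes, markers set aside. Of all genes tested, 1.12% were called. For PFKFB3, the only member among the 6, the log2 response was lower with JUN by -0.83 (edgeR adjusted p = 0.024). CDH1, listed as a basal epithelial marker, was also called. Its means were 129.4 and 129.2 CPM in vector cells without and with Dox, and 120.2 and 58.7 in JUN cells.

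EGLN3, a prolyl hydroxylase that marks hypoxia-inducible factor for breakdown, had means of 2.83 CPM in vector EtOH and 11 in vector Dox, and of 8.68 and 7.03 CPM in the JUN cells without and with Dox (interaction -2.25, edgeR adjusted p = 0.000607). NDRG1, a gene induced by low oxygen, rose from 48.9 to 83.4 CPM with YAP5SA in vector cells and fell from 125.4 to 32.9 CPM in JUN cells (interaction -2.70, edgeR adjusted p = 9.6e-06). GFPT2 fell in both, from 46.2 to 9.74 CPM in vector cells and from 177.9 to 75.0 CPM in JUN cells (interaction 1.00, edgeR adjusted p = 0.00826). ADM rose in both, from 6.88 to 347.5 CPM in vector cells and from 25.3 to 222.0 CPM in JUN cells (interaction -2.53, edgeR adjusted p = 3.95e-05). CA12, a carbonic anhydrase, fell in both, from 74.2 to 52.1 CPM in vector cells and from 241.7 to 83.8 CPM in JUN cells (interaction -1.02, edgeR adjusted p = 0.00826), and was named after its values were seen.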

How the results depend on the processing

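Of 33 called member values, 16 kept the call in all alternatives run and 17 lost it in at least 1, and 0 changed direction. Of 117 values not called, 15 were called in at least 1 alternative. The shares of all genes called in the alternatives are not given here, so counts of members from them cannot be read against the shares of the main fit. Members called lower with YAP5SA in vector cells numbered 5, against 9 with DESeq2, 9 with only the libraries compared and 8 with upper-quartile scaling. With only the libraries compared, JUN without induction had 7 members higher, and JUN with induction 2 higher and 2 lower. DESeq2 called 2 members lower in the interaction (PFKFB3 and SLC2A1). Without the members that share exons with another gene, YAP5SA in vector cells had 2 higher and 3 lower, JUN without induction 1 and 2, YAP5SA in JUN cells 0 higher, and JUN with induction 1 and 2, which follows from fewer members tested. The summed CPM of vector Dox was 15974 with upper-quartile scaling. The cause of the other shifts was not tested.

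Leaving out 1 library gave 3 to 4 members higher and 4 to 10 lower with YAP5SA in vector cells (10 without JUN Dox replicate 1), 2 to 7 and 4 to 7 with JUN without induction, 0 to 1 and 1 to 4 with YAP5SA in JUN cells, 3 to 5 and 3 to 6 with JUN with induction, and 0 and 0 to 2 in the interaction. Deviations of same-numbered replicates had correlations of -0.258 to 0.466 (median 0.0880, over 0.1 in 7 of 18 pairs), against a median of -0.0478 and 5 of 36 pairs for other numbers. The sources used here do not say whether the numbers pair the samples, and these correlations do not settle it. The main fit had no replicate term, and the counts with a replicate block are given next. With the replicate block, YAP5SA in vector cells had 4 members higher and 6 lower, JUN without induction 5 and 7, YAP5SA in JUN cells 1 and 3, JUN with induction 4 and 4, and the interaction 0 and 1. For these fits and those that left out 1 library, too, the shares of all genes called are not given here.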
